A study of Canis lupus familiaris with 8 samples.

Results

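ANKRD1 and the natriuretic peptide genes NPPA and NPPB are genes that the heart is known to switch on under load and injury. Their probe sets were taken as those that carry 1 of these 3 gene symbols and no other in the annotation of the Affymetrix Canine Genome Array. Of 23836 tested probe sets, of which 10549 name 6540 genes, 1 was listed under ANKRD1 (probe set 1602054_at), and 0 were listed under NPPA and 0 under NPPB. The natriuretic peptides themselves were therefore not analysed here, and their level in these hearts is not given. A further 13149 probe sets had no listed gene symbol in the annotation used. What follows describes ANKRD1 in every dog, with the genes of the natriuretic peptide pathway and of the stress programme that the array does name.

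The samples were left ventricular RNA of 4 control dogs (D5, D6, D7 and D8) and of 4 dogs with type 1 diabetes (DM dogs 0292, 0294, 1087 and 1111), with 1 array per dog. The series' design text and the methods differ in how many dogs each group held in all, and which of those dogs the arrays came from is known here only from the labels. All were male mongrel dogs, and no age was given in the sources used here. All dogs of both groups had undergone a thoracotomy in which pressure and flow instruments were implanted, so the control dogs are operated dogs and not untouched ones. DM was induced by intravenous alloxan, which kills pancreatic beta cells, at 40 to 60 mg/kg, with another injection in some dogs whose glucose had stayed low, and DM hearts were taken 4 weeks later. No vehicle injection of the control dogs was described. Dogs were the replicates, and the number of arrays limits the precision.

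ANKRD1 encodes the cardiac ankyrin repeat protein, which is found both in the nucleus, where it acts on transcription, and in the sarcomere, where it binds the elastic part of titin together with myopalladin. Its transcript is made by cardiomyocytes and is known to increase with stretch, pressure overload and heart failure. NPPA and NPPB encode the hormones ANP and BNP. The protease corin, and for BNP also furin, cut the prohormones, receptors with guanylyl cyclase activity turn the signal into cyclic GMP, and the protease neprilysin and phosphodiesterases end it. ANKRD1 shares promoter regulators with these hormones, such as GATA4 and NKX2-5, and is also a widely used target of the stretch-sensing cofactor YAP.

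The deposited MAS 5.0 signal of ANKRD1, on a linear scale, was 728 in D5, 1046 in D6, 821 in D7 and 1553 in D8. In DM dogs it was 1899 in 0292, 3559 in 0294, 483 in 1087 and 1256 in 1111. Both the highest and the lowest of the 8 signals thus came from DM dogs, and the groups overlapped. The ratio of the highest to the lowest signal was 2.13 among control dogs and 7.36 among DM dogs. On each array ANKRD1 was among the brighter probe sets. Of the tested probe sets of the same array, 83.4% to 91.2% lay at or below it in control dogs and 80.7% to 95.5% in DM dogs. This position averaged 86.3% ± 3.48 for the control arrays and 90.1% ± 6.85 for the DM arrays (SD, n = 4 each), with p = 0.343 by a two-sided exact permutation test.

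After quantile normalization and log2 of the signal plus 16, ANKRD1 was 9.47 in D5, 9.86 in D6, 9.57 in D7 and 10.68 in D8. It was 11.68 in 0292, 11.90 in 0294, 9.19 in 1087 and 10.33 in 1111 on the same log2 scale. Of the 4 DM dogs, 2 lay above the highest control dog (D8) and 1 lay below the lowest (D5). The remaining DM dog, 1111, lay between D6 and D8. Control dogs averaged 9.89 ± 0.55 log2 and DM dogs averaged 10.78 ± 1.26 (SD, n = 4 each). The difference was 0.88 log2 (SE 0.70), or 1.84-fold, with a 95% interval of -0.63 to 2.39 log2, which runs from 0.647-fold to 5.25-fold. It did not pass limma's test (unadjusted p = 0.230, adjusted p = 0.558), and the exact permutation test gave p = 0.257, where 4 dogs against 4 cannot go below 0.0286. A miss of the threshold does not show equal levels. The difference was larger than the SD of the control dogs (0.55 log2) and smaller than that of the DM dogs (1.26 log2). The interval includes both a lower level and a several-fold higher one.

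**Figure D1:**
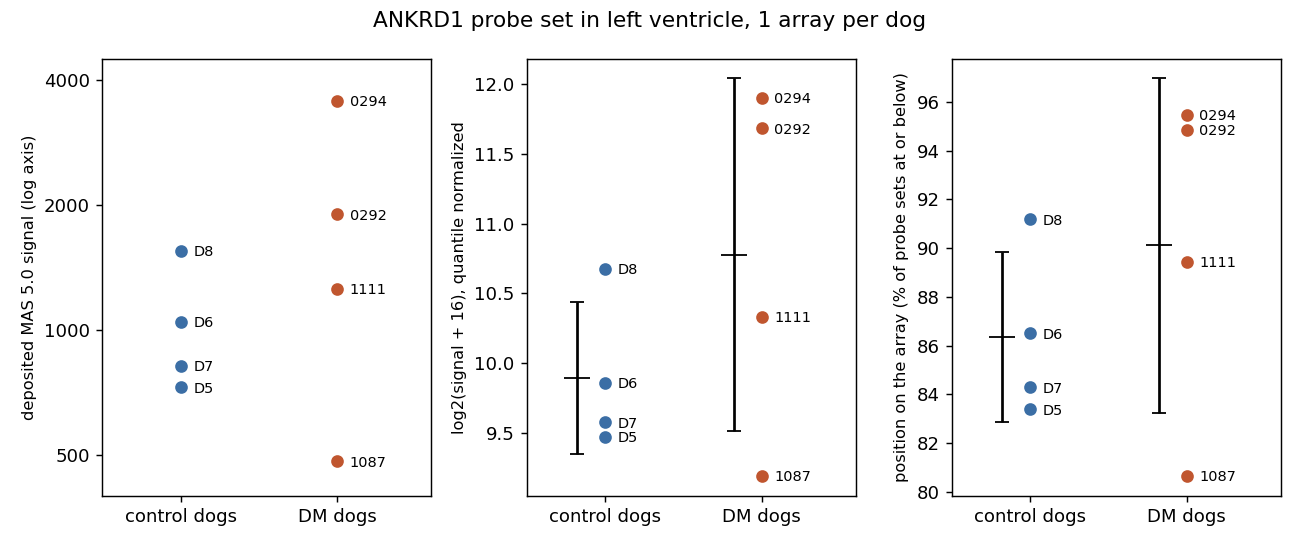
ANKRD1 (probe set 1602054_at) in the 4 control dogs and the 4 DM dogs, 1 labelled point per dog. The panels give the deposited signal on a log axis, the normalized log2 level, and the percentage of tested probe sets of the same array at or below ANKRD1, and the bars in the log2 and percentage panels are the mean and SD. DM dogs 0292 and 0294 lie above all control dogs and DM dog 1087 below them in every panel.

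Across all probe sets, 0.0168% passed an adjusted p under 0.05 from limma, and ANKRD1 was not among them. The methods asked for a nominal P no higher than 0.01 together with a 2-fold or larger change, and 4.96% of all probe sets met both. ANKRD1 missed both limits, with 1.84-fold and a P of 0.247 (adjusted p = 0.594) from the methods' t-test as run here. Here that test used equal variances on the normalized log2 signals. The methods name RMA values and variance stabilization, which were not used, so these results can differ from those of the methods. Its groups overlapped, while 10.8% of all probe sets had DM values entirely above or entirely below the control values. Of all probe sets, 43.4% had a larger log2 difference in size than ANKRD1 and 41.2% a smaller p. ANKRD1 therefore stood near the middle of the array in this comparison.

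The spread of ANKRD1 was wider in DM dogs than in control dogs, and so was that of most probe sets. The SD was larger in DM dogs in 76.7% of all probe sets, with a median SD of 1.23 log2 among DM dogs and 0.70 among control dogs. ANKRD1 had 0.55 and 1.26. Among the 1659 probe sets whose mean control level lay within 0.5 log2 of that of ANKRD1, the median SD was 0.38 and 1.10, and 41.7% had a larger SD in DM dogs than ANKRD1. The median log2 difference of these 1659 was -0.60, and 13.0% of them had a more positive difference than ANKRD1.

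The sign of the ANKRD1 difference depended on how the arrays were scaled. It was 0.52 log2 with arrays scaled to the same trimmed mean and no quantile normalization, and 0.98 with cyclic loess. It was -0.075 after median centring, with all probe sets at a median of -0.25. Scaling by the hybridization controls, transcripts added to every sample in fixed amounts, gave -1.88 for ANKRD1 (adjusted p = 0.0929) and a median of -1.65 for all probe sets. Relative to that median, ANKRD1 stood at 0.83 log2 as reported, at 0.17 without quantile normalization, at 0.17 when medians were centred, at 0.96 with cyclic loess, and at -0.23 when the hybridization controls set the scale. None of these differences passed an adjusted p under 0.05 from limma.

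**Figure D2:**
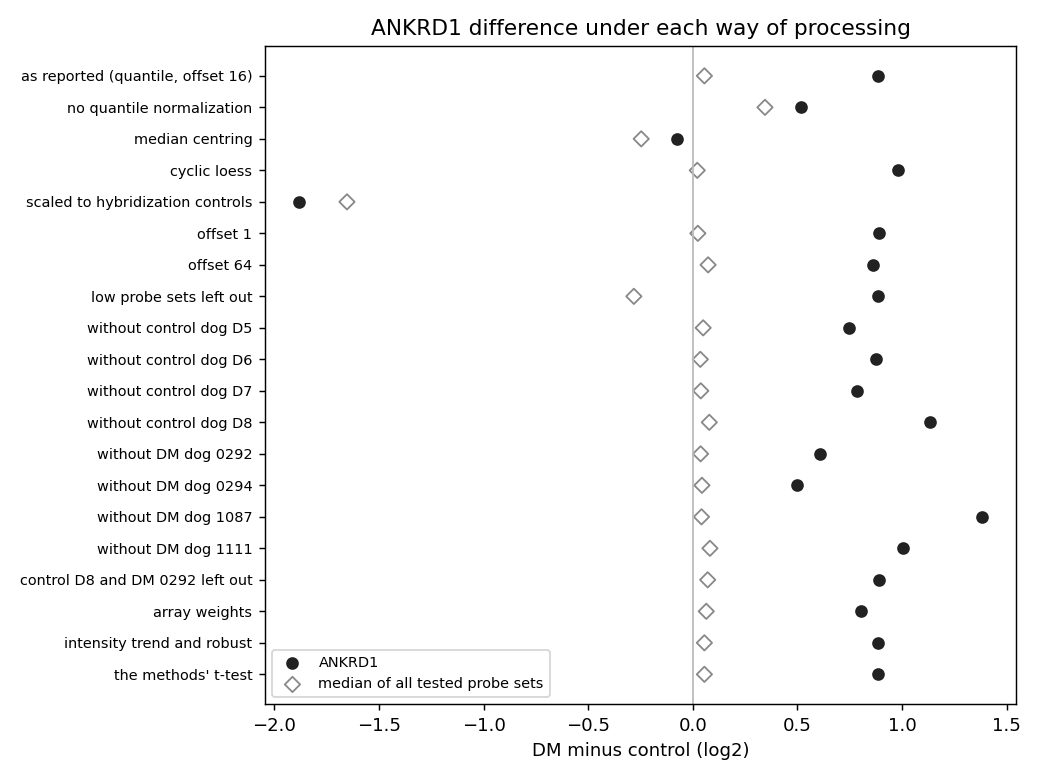
Log2 difference between DM and control dogs under each way of processing. Filled points are ANKRD1 and open diamonds are the median of all tested probe sets. ANKRD1 is 0.88 as reported and lies below 0 in only 2 of the settings, median centring (-0.075) and scaling by hybridization controls (-1.88).

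Leaving out single dogs also moved the value, though less than median centring or scaling by the hybridization controls did. Without DM dog 1087, the lowest of all, the ANKRD1 difference was 1.38 log2 (unadjusted p = 0.0555, adjusted p = 0.324 from limma). Without DM dog 0294, the highest, it was 0.50 (adjusted p = 0.755). Without control dog D8 it was 1.13 (adjusted p = 0.454), and without D8 and 0292 together it was 0.89 (adjusted p = 0.527).

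The arrays also differed in control measures other than heart gene levels. The mean log2 signal of the 18 hybridization control probe sets was 13.36 in D5, 13.09 in D6, 13.28 in D7 and 15.77 in D8, and 17.72, 16.26, 16.12 and 15.17 in 0292, 0294, 1087 and 1111. Control arrays averaged 13.88 ± 1.27 and DM arrays 16.32 ± 1.05 (SD, n = 4 each), with p = 0.0571 by a two-sided exact permutation test. The 3 arrays with the lowest hybridization controls, those of D5, D6 and D7, had ANKRD1 levels of 9.47 to 9.86 log2, and the other 5 arrays had 9.19 to 11.90. The highest ANKRD1 among control dogs was in D8, whose hybridization controls were also the highest of the control dogs. The poly-A controls, spiked into the RNA before labelling, averaged 4.51 ± 0.72 log2 on control arrays and 6.00 ± 1.37 on DM arrays (SD, n = 4 each, exact permutation p = 0.0857). They were weak, as this mean lay below the median signal of the array in every dog. That median averaged 123 on control arrays and 200 on DM arrays on the linear scale. The 3′ minus 5′ signal of actin, which is larger in more degraded or less fully copied RNA, was 1.35 to 3.04 log2 in D5, D6 and D7, 7.79 in D8 and 3.59 to 7.71 in DM dogs (exact permutation p = 0.229 between the groups). For GAPDH it was 2.17 to 3.51 in D5, D6 and D7, 0.37 to 3.90 in DM dogs, and 6.08 in D8, above every other array (exact permutation p = 0.171). D8 thus lay away from the other control dogs in all of these measures and, as given below, in the mean of the cardiomyocyte markers. In ANKRD1 it was the highest control dog but did not stand apart by Dixon's test. The part of these array differences in the ANKRD1 values was not tested. According to the methods, RNA of both groups was extracted together, and a single centre did the labelling and hybridization. The sources used here name neither a batch nor a scan date. The control arrays and the DM arrays were numbered in separate blocks of the repository and titled in different styles, a split that coincides with the groups. A batch of arrays and DM therefore cannot be told apart.

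ANKRD1 is a cardiomyocyte gene, so the markers of that cell type were set beside it. Of 12 listed cardiomyocyte markers, 9 were measured. By the brightest probe set of each gene, all of them were lower in DM dogs and 7 passed an unadjusted p under 0.05 from limma. Of all probe sets, 8.91% were lower at that p. Of the 9 markers, 0 passed an adjusted p. Their median log2 difference was -3.15, against 0.055 over all probe sets. The 9 markers summed to 18.08 to 19.30 log2 among control dogs, and to 16.79 to 17.67 among DM dogs. TNNI3, the cardiac inhibitory troponin, differed by -5.84 log2 (SE 0.93, adjusted p = 0.0608), and MB, the oxygen store myoglobin, by -5.06 (SE 0.84, adjusted p = 0.0608). MYL2, the ventricular regulatory light chain, differed by -4.31 (SE 0.75, adjusted p = 0.0608) and MYL3, the ventricular essential light chain, by -4.19 (SE 1.41, adjusted p = 0.168). The second probe sets of TNNI3 and MYL3 were dimmer and went the other way, with 0.96 (SE 0.88) and 0.53 (SE 0.61). Probe sets with a positive difference were also 8 of the 20 of TTN and 2 of the 6 of MYH7. In such bulk RNA, fewer cardiomyocytes and less of these transcripts per cardiomyocyte cannot be told apart.

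On every array, the log2 level of ANKRD1 was set against the mean log2 level of the 9 cardiomyocyte markers, a measure chosen after the values were seen because a common scaling of an array nearly cancels in it. ANKRD1 minus the markers was -5.81 log2 in D5, -5.78 in D6, -5.47 in D7 and -2.62 in D8. It was 0.50 in 0292, 0.12 in 0294, -1.80 in 1087 and -2.45 in 1111. The DM dogs all had a higher relative ANKRD1 level than the control dogs, with a narrow gap between 1111 and D8. Control dogs averaged -4.92 ± 1.54 log2 and DM dogs averaged -0.91 ± 1.44 (SD, n = 4 each), and the two-sided exact permutation test gave p = 0.0286, the smallest that 4 dogs against 4 allow. The difference was 4.02 log2 as reported and 2.73 without quantile normalization or after median centring, 2.72 with the hybridization controls as scale and 3.39 with cyclic loess, and the groups did not overlap under any of these. This measure was not particular to ANKRD1. Taken relative to the same markers, 48.5% of all probe sets were higher in every DM dog than in every control dog, the median difference over all probe sets was 3.19 log2, and 22.3% had a larger difference than ANKRD1. The larger part of the relative difference is the lower level of the markers, whose mean was 15.28, 15.64, 15.05 and 13.30 log2 in D5, D6, D7 and D8 and 10.99 to 12.78 in DM dogs.

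**Figure D3:**
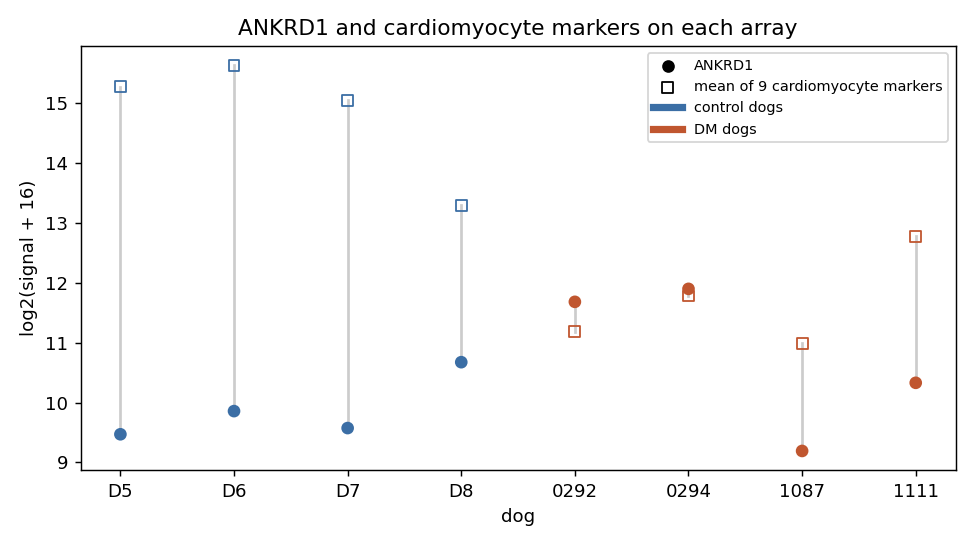
Normalized log2 level of ANKRD1 (filled circles) and mean log2 level of 9 cardiomyocyte markers (open squares) on the array of each dog, with control dogs in blue and DM dogs in orange. ANKRD1 minus the markers is -5.81 to -5.47 log2 in D5, D6 and D7, -2.62 in D8, and -2.45 to 0.50 in DM dogs, where the markers are lower.

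The natriuretic peptide pathway was covered by 4 of 15 listed genes, which are the processing enzyme CORIN, the receptor NPR2, the protease MME and the phosphodiesterase PDE5A. None passed an adjusted p under 0.05 from limma. At an unadjusted p under 0.05, 1 was higher and 0 were lower, against 7.80% and 8.91% of all probe sets. The median log2 difference of the 4 genes was 0.68, against 0.055 over all probe sets, and it was 0.38 without 0292 and 1.02 without 1087.

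CORIN, the cardiomyocyte protease that cuts pro-ANP, was 7.41, 6.67, 7.39 and 5.15 log2 in D5, D6, D7 and D8 and 7.59, 8.02, 4.96 and 7.94 in 0292, 0294, 1087 and 1111. The groups overlapped, and the low values came from D8 and 1087. The lowest 20% of all log2 values on the 8 arrays lay below 5.44, so CORIN in these 2 dogs was as weak as the weakest probe sets. The difference was 0.47 log2 (SE 0.80, adjusted p = 0.807), and it was -0.019 without D8. CORIN and ANKRD1 were both highest in 0294 and both lowest among DM dogs in 1087, whereas in D8 ANKRD1 was the highest of the control dogs and CORIN the lowest.

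NPR2, the guanylyl cyclase receptor that prefers C-type natriuretic peptide, was 9.04, 9.06 and 8.88 log2 in D5, D6 and D7 and 5.25 in D8. In DM dogs it was 8.03 in 0292, 5.73 in 0294, 9.26 in 1087 and 8.83 in 1111. The NPR2 value of D8 lay below 5.44, among the weakest 20% of all log2 values. The difference was -0.097 log2 (SE 0.98, adjusted p = 0.970), and its sign changed when any of 4 single dogs was left out. Among control dogs D8 and among DM dogs 0294 thus had low NPR2 and the highest ANKRD1 of their group.

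MME, which encodes neprilysin, the protease that degrades natriuretic peptides, was 6.24, 5.92, 6.66 and 6.98 log2 in D5, D6, D7 and D8 and 8.46, 8.53, 7.45 and 4.91 in 0292, 0294, 1087 and 1111. The 3 DM dogs other than 1111 lay above all control dogs, and 1111 lay below them. The MME value of 1111 was below 5.44, among the weakest 20% of all log2 values. The difference was 0.89 log2 (SE 0.79, adjusted p = 0.606), and it was 0.47 without 0292, 0.46 without 0294 and 1.70 without 1111.

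PDE5A, the phosphodiesterase that breaks down cyclic GMP, was 7.72, 7.38, 6.18 and 5.42 log2 in D5, D6, D7 and D8 and 9.11, 10.39, 8.99 and 7.76 in 0292, 0294, 1087 and 1111. The DM dogs all lay above the control dogs, though 1111 exceeded D5 by a small margin only. In D8 the PDE5A value was just below 5.44, among the weakest 20% of all log2 values. The difference was 2.38 log2 (SE 0.73, unadjusted p = 0.00611, adjusted p = 0.139 from limma), the largest among ANKRD1 and these 4 genes. With the hybridization controls as scale it was 0.27 (adjusted p = 0.830). A second PDE5A probe set went the other way, with -1.01 (SE 0.84, unadjusted p = 0.250), so the probe sets of this gene disagreed.

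Factors that drive the promoters of the natriuretic peptides and ANKRD1 were covered by 7 of 28 listed genes. At an adjusted p under 0.05 from limma 0 were higher or lower. At an unadjusted p likewise 0 were higher or lower, against 7.80% and 8.91% of all probe sets. Of the 7 genes, 4 had a positive difference and 3 a negative one, with a median of 0.12 log2. YAP1, the cofactor whose target ANKRD1 is, differed by 0.23 log2 (SE 0.64, adjusted p = 0.887), and its DNA-binding partner TEAD1 by -0.21 (SE 0.72, adjusted p = 0.910). These 2 were named after their values were seen. MEF2C, a factor of cardiac and skeletal muscle genes, differed by -1.57 (SE 1.06, adjusted p = 0.486), with 4.62 log2 in 0292 and 9.69 to 10.45 in the other DM dogs, and its other 2 probe sets had positive differences. The MEF2C value of 0292 lay below 5.44, among the weakest 20% of all log2 values. Without 0292 the MEF2C difference was -0.23. With the hybridization controls as scale, where the median of the array was -1.65, the MEF2C difference was -3.67 (adjusted p = 0.00923 from limma). At that scale 7675 of the 23836 probe sets passed an adjusted p under 0.05, so this call is not particular to MEF2C. FOS, an immediate early gene, differed by 0.49 (SE 0.78, adjusted p = 0.795).

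The partners of ANKRD1 at titin and the Z disc were covered by 11 of 20 listed genes, of which 9 had a negative and 2 a positive difference. Their median was -0.51 log2, against 0.055 for the whole array. At an unadjusted p under 0.05 from limma 5 were lower and 0 higher, against 8.91% and 7.80% of all probe sets, while 0 passed an adjusted p. FHL2, an adaptor protein of the sarcomere, ran from 13.25 to 14.04 log2 among the control dogs and from 7.40 to 11.37 among the DM dogs, with the lowest value in 1087. Its difference was -3.83 (SE 0.81, adjusted p = 0.0699), and the groups did not overlap. TTN, the giant spring protein that holds ANKRD1, differed by -3.15 (SE 0.82, adjusted p = 0.100) in its brightest probe set. The dogs with the highest ANKRD1, 0292 and 0294, had the lowest levels of that TTN probe set, with 11.35 and 10.93 log2. TTN has 20 probe sets, of which 8 had a positive difference. FHL1, a relative of FHL2 that also binds titin, differed by -2.77 (SE 0.90, adjusted p = 0.157), and all 4 of its probe sets were lower. DES, which encodes the intermediate filament desmin, differed by -2.47 (SE 0.62, adjusted p = 0.0923). MYPN, which encodes the ANKRD1 partner myopalladin and was named after its values were seen, differed by 0.27 (SE 0.77, adjusted p = 0.890). Of its 2 probe sets, only 1 had a positive difference.

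**Figure D4:**
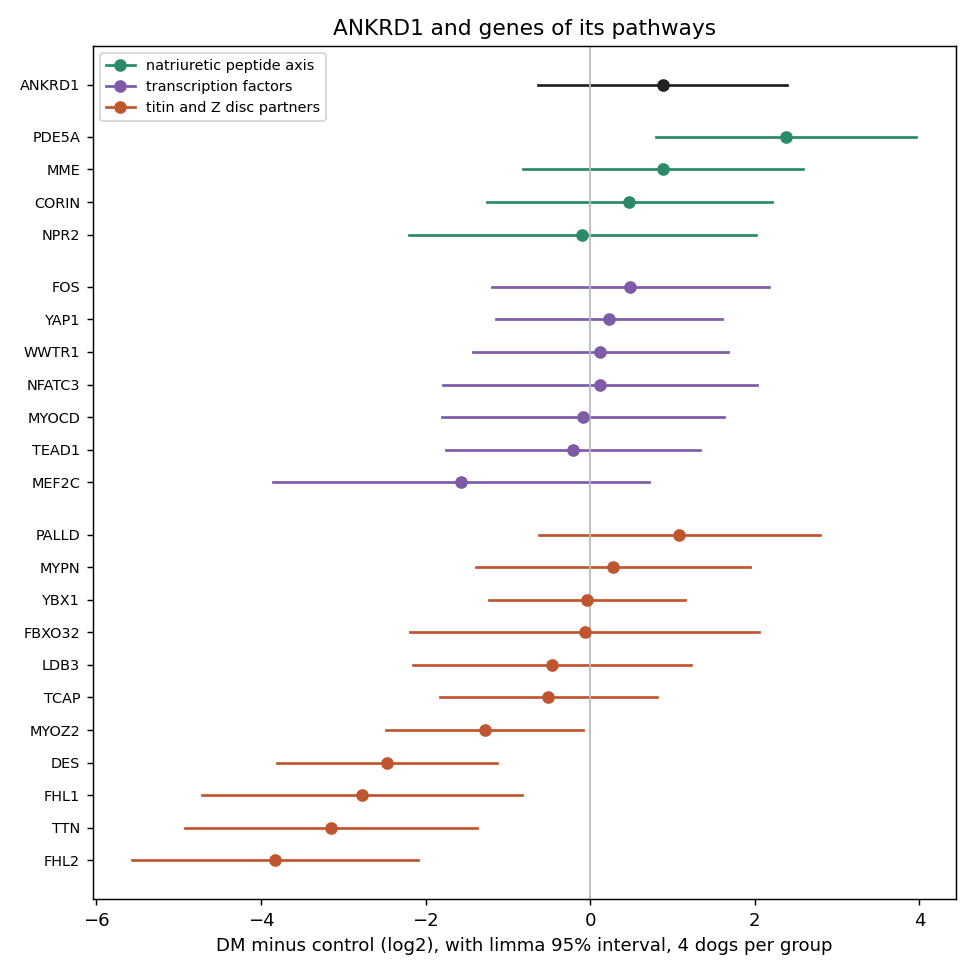
Log2 difference between DM and control dogs, with limma's 95% interval, for ANKRD1 (black) and the measured genes of the natriuretic peptide axis (green), of the promoter factors (purple) and of the titin and Z disc partners (orange). The interval of ANKRD1 runs from -0.63 to 2.39 and includes 0, and those of PDE5A, MYOZ2, DES, FHL1, TTN and FHL2 do not. The intervals are not adjusted for the number of probe sets, and none of these genes passed an adjusted p under 0.05 from limma. For comparison, an unadjusted p under 0.05 was reached by 7.80% of the whole array with higher and by 8.91% with lower levels in DM dogs. The other probe set of PDE5A and 8 of the 20 of TTN had the opposite sign.

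The fetal and stress programme, genes that reappear in loaded hearts together with structural genes that change with them, was covered by 18 of 27 listed genes. Of these, 8 had a positive and 10 a negative difference, with a median of -0.56 log2. At an unadjusted p under 0.05 from limma 0 were higher and 4 lower, against 7.80% and 8.91% of all probe sets, and 0 passed an adjusted p. The 4 were TNNI3, given above, SLC2A1, the basal glucose transporter, with -2.29 (SE 0.80, adjusted p = 0.181), ACTC1, the cardiac alpha actin, with -2.03 (SE 0.60, adjusted p = 0.127), and TNNT2, the cardiac troponin T, with -1.94 (SE 0.62, adjusted p = 0.151). TNNI3, ACTC1 and TNNT2 are also among the cardiomyocyte markers counted above. These lower genes encode structural proteins and a transporter and not hormones or signals of stress. Among the other genes of the list, 4 were named after their values were seen, and they did not pass either. CCN1 and CCN2, which like ANKRD1 are YAP targets, differed by 1.06 log2 (SE 0.82, adjusted p = 0.544) and -0.79 (SE 0.77, adjusted p = 0.637). ACTA1, the skeletal alpha actin of the fetal programme, differed by 0.66 (SE 0.57, adjusted p = 0.593) and MYH7, the slow myosin that is the main ventricular form in dogs, by -0.63 (SE 0.54, adjusted p = 0.594). The probe sets of both genes disagreed, with a positive difference in 2 of the 4 of ACTA1 and 2 of the 6 of MYH7.

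Markers of other cells were read beside ANKRD1, since the tissue is a mixture. The tissue label was ventricular, and of the atrial markers 6 of 11 were measured. Their summed log2 level was 13.35 to 13.79 in control dogs and 13.05 to 13.38 in DM dogs. This sum is mostly PAM in control dogs (12.82 to 13.33 log2), and PAM (11.75 to 12.99) with NR2F1 (10.03 to 12.59) in DM dogs. It describes those genes rather than the list. At an unadjusted p under 0.05 from limma 1 of the 6 atrial markers was higher and 1 lower, against 7.80% and 8.91% of all probe sets. MYL4, the atrial essential light chain, differed by -2.01 (SE 0.87, adjusted p = 0.266) and NR2F1, a transcription factor of atrial and of other cells, by 2.22 (SE 0.68, adjusted p = 0.138). The macrophage and monocyte list was measured with all 7 of its genes, of which 2 were higher and 0 lower at an unadjusted p, against 7.80% and 8.91% of all probe sets. Its summed log2 level was 12.08 to 13.28 in control dogs and 14.25 to 16.50 in DM dogs, without overlap, but this sum is nearly all LYZ, which alone was 14.08 to 16.34 log2 in DM dogs, and describes that gene rather than the list. LYZ, the lysozyme of phagocytes, differed by 3.53 (SE 0.69, adjusted p = 0.0608). CD68, a lysosomal marker of macrophages, differed by 1.47 (SE 0.58, adjusted p = 0.233). The other 5 genes overlapped between the groups, with CD163 at 1.62, ITGAM at 0.63, AIF1 at 0.50, CD14 at -1.10 and CSF1R at -1.20, and they are given after their values were seen. Their part in the ANKRD1 values was not tested.

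Of the ventricular markers 4 of 6 were measured, with MYL2 and MYL3, given above, lower at an unadjusted p. Of the endothelial markers 5 of 7 were measured and 0 passed an unadjusted p, with ENG, an endothelial TGF beta coreceptor, at -1.20 (SE 0.64, adjusted p = 0.368) and VWF, the clotting factor carrier, at -1.45 (SE 0.99, adjusted p = 0.487). Of the 4 VWF probe sets, 2 had a positive difference. Of the fibroblast markers 5 of 7 were measured and 1 was lower at an unadjusted p, which was the matrix proteoglycan gene DCN with -1.85 (SE 0.78, adjusted p = 0.255), while POSTN, a matrix protein of activated fibroblasts, had 1.70 (SE 0.86, adjusted p = 0.338). Of the smooth muscle markers 3 of 6 were measured and 1 was lower at an unadjusted p, which was TAGLN with -1.81 (SE 0.73, adjusted p = 0.237), whose other 3 probe sets went the other way, and MYH11, the smooth muscle myosin, had -0.93 (SE 0.57, adjusted p = 0.441). The adipocyte genes LPL and ADIPOQ, the platelet gene ITGA2B and the T cell gene CD3E had 1.15 (SE 0.64), -1.11 (SE 0.69), -0.44 (SE 0.83) and -0.23 (SE 0.64), with adjusted p of 0.388 to 0.890 from limma. The dimmer LPL probe sets were also higher, with 2.50 (SE 0.57, adjusted p = 0.0816) and 1.83 (SE 0.96, adjusted p = 0.363). Of the red blood cell markers 0 were measured.

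The probe sets whose pattern over the 8 dogs was most like that of ANKRD1 were sought among 10548 probe sets of other genes with 1 symbol. The highest Pearson r belonged to CIR1, a corepressor partner of Notch signalling (r = 0.964), CYP11A1, the first enzyme of steroid hormone synthesis (r = 0.964), and C11H9orf24 (r = 0.963). These values describe 8 arrays that share their normalization, they are the extremes of many comparisons, and no test was made. Without quantile normalization r was 0.860, 0.805 and 0.826. Like ANKRD1, each of the 3 probe sets was highest in 0292 and 0294. In control dogs CYP11A1 lay at 5.03 to 6.03 log2 and C11H9orf24 at 4.76 to 5.94, near the weakest values of the arrays, while CIR1 lay at 8.70 to 9.68. An r over 0.9 with ANKRD1 was reached by 43 of the 10548.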

How the data were processed

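RNA from the left ventricle of 8 dogs was hybridized, 1 array per dog. According to the methods and the labels, the authors summarised the scans with MAS 5.0, and the deposited values are linear signal intensities, which already share a trimmed mean of about 500 (2% trimmed at either end). The RMA values of the methods were not used here. Gene symbols came from the array's annotation. Each gene is represented by its brightest probe set over the 8 arrays.

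From these intensities, arrays were set to exactly that trimmed mean and quantile normalized, 16 was added and log2 was taken. Groups were compared with limma 3.58.1 in R 4.3.3 (two-sided, group alone, Benjamini-Hochberg over 23836 probe sets, 0.05). Exact permutation used all 70 assignments. The members, the 4 pathway lists and the 11 marker lists were chosen with earlier results of these data known.

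Named are ANKRD1, every measured gene of the natriuretic axis, and from each other list the 4 largest differences at an unadjusted p under 0.05, or the 2 smallest p where fewer than 2 passed, plus the 3 patterns most like ANKRD1. Alternatives were other scalings, offsets of 1 and 64, a filter on low probe sets, array weights, an intensity trend, the methods' t-test (run here with equal variances), and leaving out dogs. The correlation between members was not computed, with 1 probe set. The fit was tested on simulated data. Figures were drawn with matplotlib 3.10.9.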

Additional observations from a re-analysis of the deposited data

Results flagged for a closer look

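ANKRD1 itself had no dog that stood apart from the other 3 of its group by Dixon's test. Among ANKRD1 and the named genes 64 groups of 4 dogs were examined and 7 held such a dog, where chance gives about 1 in 20. In control dog D8, NPR2 was 5.25 log2 (8.88 to 9.06 in the other control dogs), TNNI3 was 12.87 (16.09 to 16.65), MYL2 was 15.03 (16.87 to 17.19) and LPL was 10.14 (8.64 to 8.88). In control dog D6, FOS was 7.12 (8.17 to 8.34). In DM dog 1087, CORIN was 4.96 (7.59 to 8.02 in the other DM dogs), and in DM dog 0292, MEF2C was 4.62 (9.69 to 10.45). The values of NPR2 in D8, CORIN in 1087 and MEF2C in 0292 were among the weakest 20% of all log2 values.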

How the results depend on the processing

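ANKRD1 passed an adjusted p under 0.05 under 0 of 19 alternatives, and was positive under 17. The exceptions were median centring, with -0.075 (exact permutation test, p = 0.886), and scaling to the hybridization controls, with -1.88 (exact permutation test, p = 0.0857). The median of all probe sets was -1.65 log2 under the latter. The criteria of the methods passed ANKRD1 under none of the 16 alternatives run. Relative to cardiomyocyte markers its difference was 3.53 to 4.75 without single dogs; without any 1 DM dog the exact p was 0.0571, and without D8 and 0292 together the difference was 4.25 with p = 0.100, the smallest that 3 dogs against 3 allow. Scaled to the hybridization controls, the medians of the natriuretic, promoter factor, titin partner and fetal lists were -1.07, -1.59, -2.68 and -2.31 log2, and that of the fetal list was -0.074 without quantile normalization, where the natriuretic list was at 1.08. Without single dogs the 4 medians, in this order, were 0.38 to 1.02, -0.30 to 0.22, -1.05 to -0.34 and -0.67 to -0.28. Some named genes that passed no adjusted p as reported passed an adjusted p under 0.05 under alternatives. Of 19 alternatives, MB did so in 9, TNNI3 and MYL2 in 8, FHL2 in 7, LYZ and DES in 6 and TTN in 5. Others did so in fewer or in none. With the intensity trend, 873 of all probe sets passed, and limma's adjusted p was 0.00059 for MB, 0.00057 for LYZ and 0.0017 for FHL2. Of the named genes, these signs turned. Under scaling to the hybridization controls CORIN was -1.16, MME -0.98, FOS -1.43, NR2F1 -0.39, CD68 -0.52 and LPL -1.03. NPR2 was 0.042 without quantile normalization, 0.090 with cyclic loess and -1.04 to 0.64 without single dogs. Without D8 and 0292 together, CORIN, CD3E and ITGA2B were -0.19, 0.16 and 0.45, with array weights -0.093, 0.063 and 0.19, and without single dogs -0.019 to 1.20, -0.63 to 0.064 and -1.08 to 0.083. The cause of these changes was not tested. Calls of all probe sets at an adjusted p under 0.05 ran from 0 to 7675, against 4 as reported. The number of arrays and the use of signals without detection calls limit what can be said of ANKRD1 and of dim genes such as CORIN.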

Other observations

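In the RefSeq dog assembly UU_Cfam_GSD_1.0, used for names only, NPPB and NPPA are neighbours, and both genes that flank the pair are measured on the array. They were chosen after the values were seen. KIAA2013, beside NPPB, differed by -1.93 log2 between DM and control dogs (SE 0.67, adjusted p = 0.182 from limma), and CLCN6, beside NPPA, by -0.052 (SE 0.85, adjusted p = 0.982). Near ANKRD1, RPP30 differed by -1.30 (SE 0.76, adjusted p = 0.408) and PCGF5 by -1.40 (SE 0.93, adjusted p = 0.476). None of the 4 passed an adjusted p under 0.05, and other scalings were not run for them.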
